A study of Mus musculus with 9 samples.

Results

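The comparison described here set the hippocampus of mouse pups exposed to perfluorooctane sulfonate (PFOS) through milk on postnatal days 8 to 14 against that of control pups, by bulk RNA sequencing of tissue taken on postnatal day 21. All animals were wild type. Dams of the exposed pups were given PFOS by gavage at 1 mg/kg body weight per day over the exposure window, and the controls carried the treatment label sham. The comparison used 6 of the 9 samples of the series, 3 labelled PFOS P8-14 and 3 controls. The other 3, labelled PFOS P1-7, came from pups exposed at the same dose to the dam on days 1 to 7, and entered the model for its estimate of spread and 1 contrast between the windows. Nothing in the labels ties a sample to its own animal or litter, so p-values measure the spread between these samples only, and that spread may be technical. Values were TPM (length-scaled transcript abundances on a common total), which keep no read depth, so the depth of each library is unknown. Of 23412 gene symbols, 14336 reached 1 TPM in at least 3 of the 9 libraries and were compared as log2(TPM + 1). All log2 differences below are PFOS P8-14 minus control on that scale, which understates the change of low genes.

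PFOS is a fluorinated surfactant that binds proteins, passes into milk and activates lipid-sensing nuclear receptors such as PPAR alpha and the constitutive androstane receptor in liver. The hippocampus holds the dentate gyrus and the CA fields, whose neurons form and prune excitatory synapses in the weeks before weaning while oligodendrocytes lay down myelin. Microglia, the resident immune cells, tag synapses with complement during the same period, and neurons choose partners with the help of cadherins and protocadherins on their surface.

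The tissue label held against its markers in all 6 libraries: Prox1, which marks dentate granule neurons, was at 49.7, 27.4 and 17.1 TPM in controls and 47.3, 40.2 and 48.4 TPM in exposed libraries, and the CA1 marker Wfs1 was at 122 TPM or more in each. The 3 controls did not resemble each other as closely as the 3 exposed libraries did. The median absolute log2 difference over 14336 genes was 0.114 between controls 2 and 3, but 0.232 and 0.242 from control 1 to each of them. Control 1 lay nearer to the 3 exposed libraries, at 0.135, 0.169 and 0.143, and its value was nearer to the exposed mean than to the mean of the other 2 controls for 68.6% of genes. The same share was 32.9% for control 2 and 37.1% for control 3. The exposed libraries were 0.128 to 0.166 apart. The median gene had an SD of 0.17 among controls and 0.13 among exposed libraries, and 63.6% of genes varied more among controls.

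**Figure D1:**
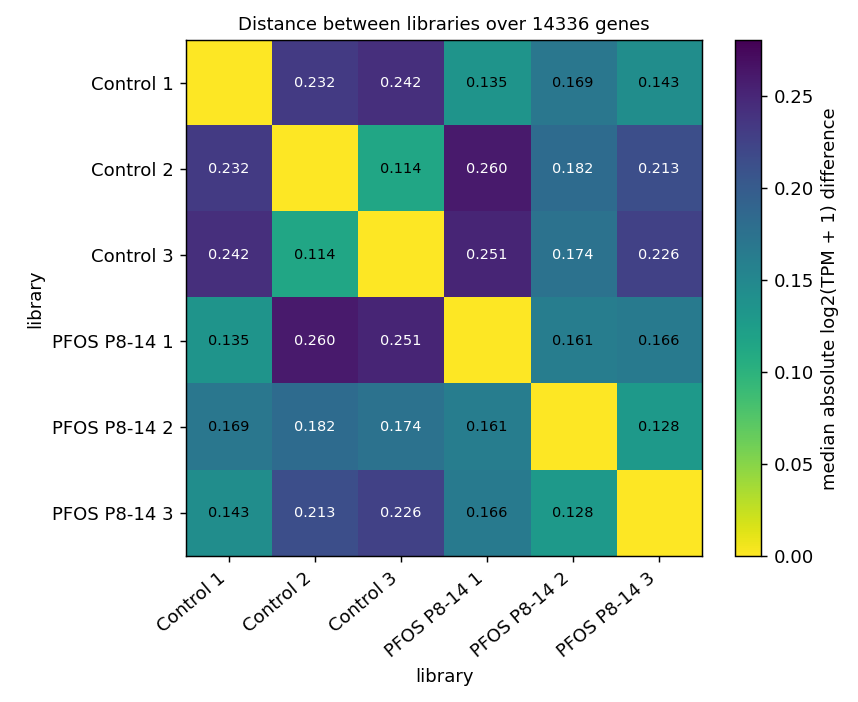
Median absolute difference in log2(TPM + 1) over 14336 genes between each pair of the 6 libraries, with the value in each cell. Controls 2 and 3 are 0.114 apart, while control 1 is 0.232 and 0.242 from them and 0.135 to 0.169 from the exposed libraries.

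Choroid plexus, the epithelium that makes cerebrospinal fluid beside the hippocampus, was present in some libraries and nearly absent from others. The 22 choroid markers summed to 224, 195 and 11271 TPM in controls 1 to 3, and to 11369, 10956 and 303 TPM in exposed libraries 1 to 3. All 22 had higher means in the exposed group, with a median log2 difference of 1.32, and the groups overlapped in each of the 22. Kl, Folr1 and Enpp2 showed the same split, for example Folr1 at 0.80, 0.71 and 14.3 TPM in controls and 60.3, 35.5 and 1.68 TPM in exposed libraries. In bulk tissue, more cells of a type and more RNA per cell cannot be told apart.

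No gene passed an adjusted p of 0.05 in limma's moderated test over all 9 libraries, or 0% of 14336, and the smallest adjusted p was 0.424. At an unadjusted p under 0.05, limma gave 907 genes higher in PFOS P8-14 (6.33% of genes) and 666 lower (4.65%). In 1048 genes (7.31%) every exposed value lay above every control value, and in 859 (5.99%) every exposed value lay below. These shares are the background for the counts of members given below. The median gene differed by 0.06, and 8904 of the 14336 genes had a positive difference. Differences were small: 77.1% of genes were within 0.25 of no difference, 43 were at least 1 higher and 11 were at least 1 lower. The median standard error was 0.13, and the median 95% confidence interval was the estimate ± 0.29. In a check of the fit, values were simulated with independent normal noise at each gene's own spread. Known shifts were placed in 200 genes drawn from those with higher expression. The same limma fit recovered 41.5% of 1.5-fold, 85.5% of 2-fold and 97% of 4-fold shifts, with 2, 17 and 11 false calls. Noise shared between genes of a library was not simulated, so these shares do not give the recovery in the real libraries. Recovery with control 1 apart from the other controls was not tested.

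Control 1 decided the count of genes past the threshold. Leaving it out, limma called 1741 genes (12.1%), 1253 of them higher in the exposed group, against 0 when any other of the 6 libraries was left out. Down-weighting libraries by their own spread, which gave control 1 the lowest weight of the 9 at 0.25, called 1053 genes (7.35%). Without control 1, every exposed value lay above both remaining controls for 4747 genes (33.1%) and below both for 2208 (15.4%). The counts were 1376 and 1173 without control 2, and 1558 and 1260 without control 3. Groups with fewer controls separate more readily, so the shares with all 6 libraries are not the background for these counts. With control 1 left out and all libraries also detrended for length and GC, a setting chosen after seeing the data, 1371 of 14202 genes (9.65%) were called.

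Genes are named by fixed rules, chiefly the 12 with the smallest p in each direction, all at a limma adjusted p of 0.424. For all 24 the exposed and control values did not overlap. The sign of the difference was kept in each of the 21 alternative settings in which the gene was fitted. The ranking favours both. Of the 24, 22 had a transcript length, and the others were not fitted where libraries were detrended.

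**Figure D2:**
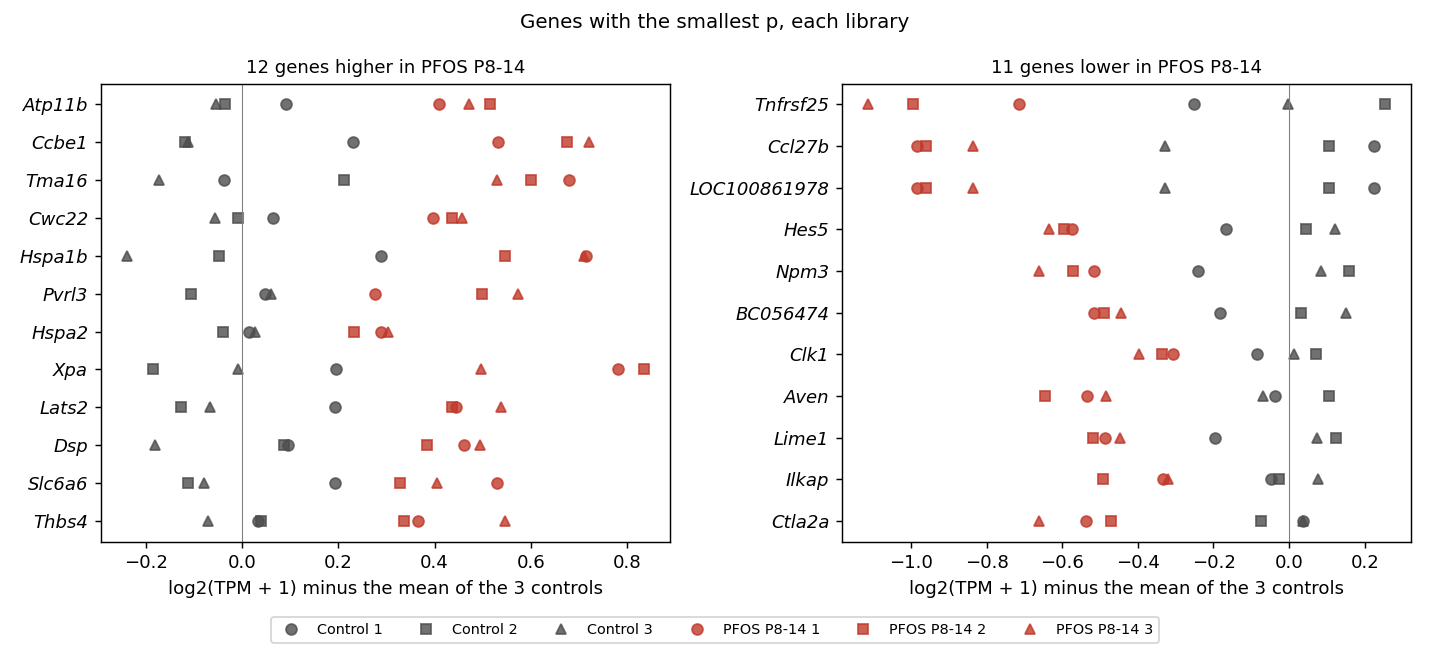
Genes with the smallest p in PFOS P8-14 against control, 12 higher and 11 of the 12 lower, drawn as log2(TPM + 1) of each library minus the mean of the 3 controls. Exposed libraries (red) and controls (grey) do not overlap in any gene drawn, and for Hspa1b and Lats2 control 1 is the control nearest to the exposed libraries.

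Among the genes higher after exposure on days 8 to 14, Atp11b had the smallest p. Atp11b encodes a phospholipid flippase, an enzyme that moves lipids from the outer to the inner leaflet of a membrane, and lies at chr3:35754106-35856276 on the forward strand (mm10). It was at 44.1, 40.3 and 39.8 TPM in controls 1 to 3 and at 55.2, 59.5 and 57.7 TPM in exposed libraries 1 to 3. The difference was 0.47 ± 0.07 (SE), and leaving out each of the 6 libraries in turn gave 0.44 to 0.51. The groups stood well apart and control 1 was the highest control.

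Transporters and surface proteins followed. Slc6a6, the taurine transporter, was at 77.1, 62.2 and 63.6 TPM in controls and 97.7, 84.8 and 89.4 TPM in exposed libraries, a difference of 0.42 ± 0.10 (SE). Pvrl3 (nectin-3), an adhesion protein of CA2 and CA3 neurons and of mossy fibre contacts, was at 22.6, 20.2 and 22.8 TPM against 26.7, 31.2 and 33.0 TPM, a difference of 0.45. Control 1 sat within the other controls for Pvrl3 and above them for Slc6a6. Thbs4, a thrombospondin secreted into the extracellular matrix, was at 11.5, 11.6 and 10.6 TPM against 14.7, 14.4 and 16.8 TPM. Ccbe1, a secreted protein needed for lymphatic vessel growth, was at 12.7, 9.74 and 9.79 TPM against 15.9, 17.6 and 18.2 TPM. Lats2, a kinase of the Hippo growth pathway, was at 23.8, 18.9 and 19.7 TPM against 28.5, 28.4 and 30.5 TPM, a difference of 0.47.

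2 heat shock proteins of the Hsp70 family, chaperones that refold damaged proteins, were among the 12. Hspa1b, the stress-inducible member at chr17:34956436-34959238 on the reverse strand, was at 21.6, 16.9 and 14.7 TPM in controls and 29.4, 26.1 and 29.3 TPM in exposed libraries. Its difference was 0.66 ± 0.14 (SE), or 0.54 to 0.80 when each library was left out in turn. Hspa2 was at 85.1, 81.9 and 85.9 TPM against 103, 99.2 and 104 TPM, a difference of 0.27, with control 1 inside the control range. Hspa1a, chosen for mention after its values were seen, was at 21.6, 15.5 and 15.1 TPM against 25.5, 23.5 and 27.99 TPM. Hspa1a and Hspa1b are near-identical copies, so the split of reads between them is uncertain. Of 30 heat shock genes tested, 18 were higher and 12 lower, with a median of 0.05, close to the 0.06 of all genes. In 7 all exposed values were above all controls (23.3% of the 30, against 7.31% of all genes). In 1 all exposed values were below (3.33%, against 5.99%).

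The upstream sequence of Hspa1b is shown because heat shock factor binds inverted nGAAn units in promoters of this family. It was read 5′ to 3′ from RefSeq (GRCm38.p6, chr17:34959239-34959488, reverse strand), and capitals mark the match to GAANNTTC, which is the same on both strands and was found in 6.69% of 32851 promoters in windows of 250 bases.
Hspa1b: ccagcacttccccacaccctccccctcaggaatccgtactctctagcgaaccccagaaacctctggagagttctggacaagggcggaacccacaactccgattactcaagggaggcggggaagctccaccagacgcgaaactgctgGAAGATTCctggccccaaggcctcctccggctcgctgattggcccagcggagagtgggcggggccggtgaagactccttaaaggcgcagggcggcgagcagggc
The match describes the letters in this window and is not a measured binding site.

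The remaining higher genes act in the nucleus or on RNA, apart from Dsp, a desmosome protein found in dentate granule neurons. Cwc22, a splicing factor that loads the exon junction complex, was at 13.2, 12.5 and 12.1 TPM against 16.9, 17.4 and 17.7 TPM. Tma16, a ribosome biogenesis factor, was at 12.5, 15.1 and 11.3 TPM against 21.3, 20.1 and 19.1 TPM, a difference of 0.60. Xpa, a DNA damage recognition protein of nucleotide excision repair, was at 18.0, 13.6 and 15.5 TPM against 27.6, 28.7 and 22.5 TPM, a difference of 0.70 ± 0.16 (SE). Each of these separated the groups, and control 1 was the highest control for Cwc22 and Xpa but not for Tma16. By size among genes with a mean of at least 5 TPM whose groups did not overlap, Agxt2l1, an ethanolamine-phosphate lyase of astrocytes, led with 6.05, 12.4 and 6.23 TPM in controls and 20.8, 15.1 and 13.8 TPM in exposed libraries. Eln, the elastin of vessel walls, followed at 23.3, 23.8 and 13.5 TPM against 40.8, 28.9 and 39.5 TPM, a difference of 0.85 ± 0.24 (SE).

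Among the genes lower after exposure, Tnfrsf25 had the smallest p. It encodes death receptor 3, a tumour necrosis factor receptor best known on T cells, and lies at chr4:152115934-152120119 on the forward strand. It was at 15.7, 22.7 and 18.8 TPM in controls and 11.1, 8.97 and 8.17 TPM in exposed libraries, a difference of -0.94 ± 0.15 (SE). Leaving out each library in turn gave -1.07 to -0.81. It was also below PFOS P1-7, where it was at 14.7, 12.8 and 15.2 TPM, by 0.56 on the log2 scale (unadjusted p = 0.00454, limma adjusted p = 1). Ccl27b was at 13.5, 12.4 and 8.89 TPM in controls and 5.28, 5.38 and 5.96 TPM in exposed libraries. Its values are identical to those of the symbol LOC100861978, and Ccl27 has several near-identical copies in the mouse, so which copy was measured is uncertain.

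Hes5, a repressor that Notch signalling switches on in neural stem cells and astrocytes, lies at chr4:154960923-154962371 on the forward strand. It was at 22.0, 25.6 and 27.0 TPM in controls and 16.3, 16.1 and 15.6 TPM in exposed libraries. The difference was -0.60 ± 0.11 (SE), or -0.68 to -0.54 leaving out each library in turn, and control 1 was the lowest control. Hes5 stood out among the 15 tested markers of neural stem cells and neuroblasts, of which 7 were higher and 8 lower with a median of -0.0050. In that list Stmn1, a microtubule destabiliser of young neurons, was at 549, 654 and 618 TPM against 384, 500 and 507 TPM. Sox4, a transcription factor of new neurons, went the other way at 25.1, 11.1 and 12.1 TPM against 27.3, 20.4 and 24.7 TPM, with control 1 inside the exposed range.

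The upstream sequence of Hes5 is shown because the Notch partner RBPJ reads the letters TGGGAA. It was read 5′ to 3′ from RefSeq (GRCm38.p6, chr4:154960673-154960922, forward strand), and capitals mark the 2 matches, 1 on each strand, so that the first reads as the reverse complement. At least 1 match on either strand was found in 21.6% of 32851 promoters of the same length.
Hes5: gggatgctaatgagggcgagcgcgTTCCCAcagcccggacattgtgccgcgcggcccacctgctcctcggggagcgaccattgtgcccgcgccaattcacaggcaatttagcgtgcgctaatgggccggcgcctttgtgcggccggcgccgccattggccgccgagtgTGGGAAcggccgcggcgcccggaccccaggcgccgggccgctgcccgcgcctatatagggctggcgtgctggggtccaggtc
Both matches are descriptions of the sequence, with no binding measured here.

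Several of the other lower genes act in signalling, splicing or the nucleolus. Npm3, a nucleoplasmin family chaperone of the nucleolus, was at 28.4, 37.7 and 35.8 TPM against 23.3, 22.4 and 21.0 TPM, a difference of -0.58. Clk1, a kinase that phosphorylates SR splicing factors, was at 115, 129 and 124 TPM against 98.8, 96.8 and 92.8 TPM, a difference of -0.35 ± 0.07 (SE). In both genes control 1 was the lowest control but lay above each exposed library. Aven, an inhibitor of apoptosis, was at 10.2, 11.4 and 10 TPM against 6.97, 6.37 and 7.24 TPM. Ilkap, a phosphatase that binds integrin-linked kinase, was at 58.5, 59.4 and 63.9 TPM against 47.8, 42.8 and 48.3 TPM. Lime1, an adaptor for Src family kinases, was at 51.4, 64.5 and 62.2 TPM against 41.9, 41.0 and 43.1 TPM. The groups were separate for all 3, and control 1 was the lowest control for Ilkap and Lime1. Ctla2a, a cysteine protease inhibitor, was at 15.9, 14.7 and 15.9 TPM against 10.4, 10.9 and 9.43 TPM, and BC056474 had a difference of -0.48. Among those with the largest negative differences by the same restriction, Dok3, an adaptor of immune cells, was at 8.33, 15.9 and 13.2 TPM against 7.30, 3.58 and 5.08 TPM, a difference of -1.09 ± 0.28 (SE). Rmrp, a short RNA without a poly(A) tail, varied from 7.60 to 52.5 TPM among controls and from 0.00 to 4.88 TPM in exposed libraries, and its SE was 0.92.

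Of 109 symbol-defined families with at least 5 tested members, the 8 with the highest medians were as follows. Calcium channel genes had a median difference of 0.26, with 20 of 22 higher, and protocadherins 0.26, with 60 of 67 higher. Cadherins had 0.25, with 16 of 19 higher, metabotropic glutamate receptors 0.22, with 5 of 7, ionotropic glutamate receptors 0.19, with 15 of 19, and the motor proteins of the kinesin family 0.18, with 27 of 31. The insulin-like growth factor axis, at 0.23 with 12 of 14, and claudins, the tight junction proteins, at 0.20 with 12 of 14, completed the 8. All genes together had 0.06.

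Among these 8 families, protocadherins had the most members whose groups did not overlap. In 12 of 67 members (17.9%, against 7.31% of all genes) every exposed value was above every control, and in 0 the reverse. Pcdh9, a protocadherin outside the gene clusters, was at 50.7, 39.6 and 40.4 TPM in controls and 56.8, 51.0 and 60.1 TPM in exposed libraries, a difference of 0.36 ± 0.11 (SE). The clustered members Pcdhga4, at 11.3, 7.45 and 7.79 TPM against 12.3, 11.6 and 12.98 TPM, and Pcdha5, at 5.87, 3.86 and 4.37 TPM against 6.59, 6.68 and 6.92 TPM, had the same order. Clustered protocadherins share exons, so their counts are not independent and each one's share is uncertain. In both, control 1 lay close under the exposed libraries.

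Calcium channel members did not separate the groups upwards in any case. Cacna1a, the pore of P/Q-type channels at presynaptic terminals, was at 72.8, 39.4 and 41.9 TPM in controls and 78.6, 61.7 and 73.0 TPM in exposed libraries, a difference of 0.51 ± 0.20 (SE), with control 1 inside the exposed range. Cacng8, an auxiliary subunit of AMPA receptors, was at 257, 188 and 186 TPM against 265, 250 and 283 TPM. The 2 lower members, Cacnb3 and Cacng3, both lay below every control (9.09%, against 5.99% of all genes), Cacnb3, a channel beta subunit, at 183, 214 and 176 TPM against 167, 158 and 171 TPM. Cacng3, named after its values were seen, was at 67.1, 71.2 and 59.8 TPM against 53.7, 59.7 and 58.4 TPM. Cdh11, a type II cadherin, was at 58.2, 42.1 and 44.9 TPM against 62.6, 60.9 and 63.7 TPM with no overlap, and Cdh8 at 49.9, 27.5 and 30.1 TPM against 45.1, 45.0 and 55.2 TPM. The glutamate receptor subunits Gria2, at 307, 248 and 229 TPM against 298, 307 and 365 TPM, and Grin1, at 522, 367 and 370 TPM against 540, 454 and 535 TPM, overlapped through control 1 as well. The kinesin Kif1b, which carries synaptic vesicle precursors, was at 232, 180 and 169 TPM against 246, 214 and 250 TPM.

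Control 1 lay apart from the other controls in protocadherins, calcium channels and ionotropic glutamate receptors. The mean log2 deviation of protocadherins from their mean over all 9 libraries was 0.13, -0.28 and -0.31 in controls 1 to 3, and 0.07, 0.00 and 0.13 in exposed libraries. For calcium channels it was 0.14, -0.35 and -0.35 against 0.20, -0.04 and 0.12, and for ionotropic glutamate receptors 0.30, -0.29 and -0.39 against 0.21, -0.10 and 0.19. Leaving out control 1 moved the median of calcium channels to 0.39 and that of protocadherins to 0.37. Claudins followed the choroid plexus instead, at -0.36, -0.40 and 0.07 in controls and 0.42, 0.23 and -0.32 in exposed libraries, and with the choroid score as a covariate their median was 0.08. For the insulin-like growth factor axis the mean deviation was -0.01, -0.36 and -0.08 in controls and 0.29, 0.09 and -0.17 in exposed libraries. Its median of 0.23 was 0.10 with that covariate and 0.13 without exposed replicate 1. The choroid score is the mean of the choroid markers, which include Cldn1, Cldn2 and Igfbp2. The covariate is thus not independent of these families, and part of the fall in their medians is built in. Cldn5, the endothelial claudin, was an exception at 120, 106 and 122 TPM against 95.2, 94.98 and 92.4 TPM. Igf1, a growth factor, was at 3.47, 3.50 and 3.17 TPM against 4.12, 4.70 and 5.39 TPM, with no overlap. Its receptor Igf1r was at 12.97, 9.92 and 10.3 TPM against 14.2, 12.1 and 13.8 TPM.

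**Figure D3:**
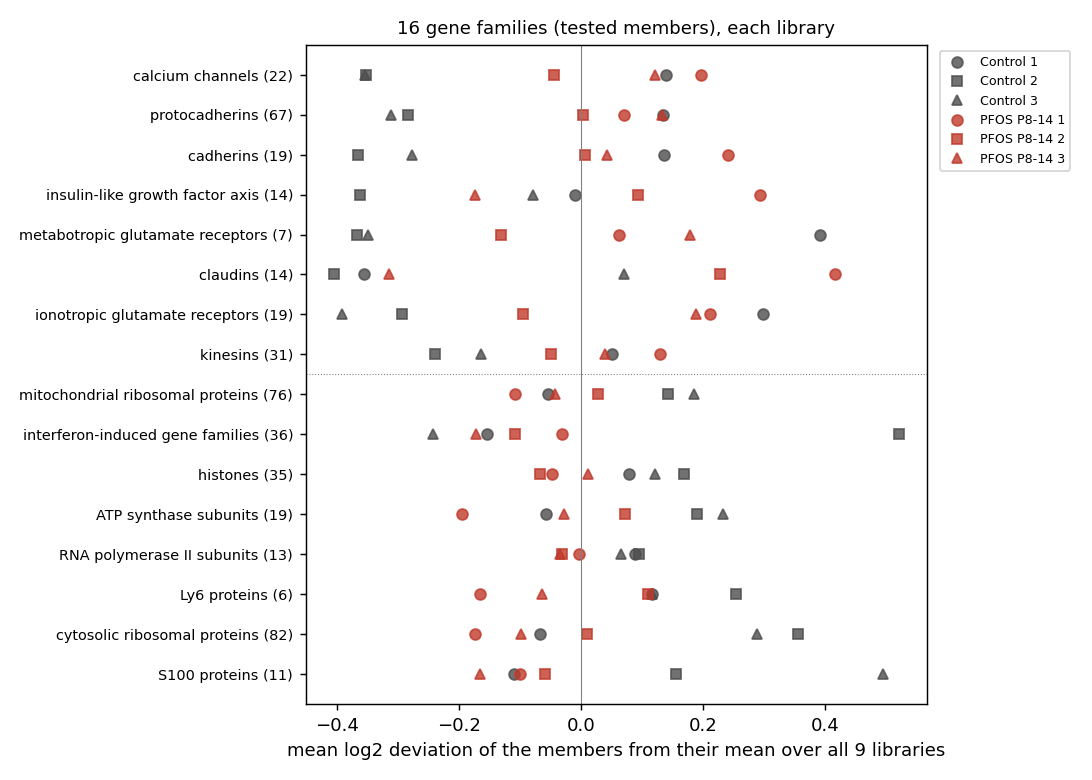
Mean log2 deviation of each library from the 9-library mean for the 8 families with the highest and the 8 with the lowest median difference, with tested members in brackets. In protocadherins control 1 (0.13) sits with the exposed libraries (0.00 to 0.13) while controls 2 and 3 sit at -0.28 and -0.31, and in interferon-induced genes control 2 stands alone at 0.52.

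Ribosomal proteins and ATP synthase subunits were among the 8 families with the lowest medians. Cytosolic ribosomal proteins had a median of -0.25, with 78 of 82 lower and 24 with every exposed value below every control (29.3%, against 5.99% of all genes). Mitochondrial ribosomal proteins had -0.13, with 59 of 76 lower. In 15 of the 76 every exposed value was below every control (19.7%, against 5.99% of all genes), and in 3 above (3.95%, against 7.31%). ATP synthase subunits had -0.15, with 15 of 19 lower. Mrpl12, of the large mitochondrial subunit, was at 164, 201 and 203 TPM against 148, 138 and 131 TPM, a difference of -0.44 ± 0.09 (SE). In cytosolic ribosomal proteins the mean deviation was -0.07, 0.35 and 0.29 in controls and -0.17, 0.01 and -0.10 in exposed libraries, so control 1 lay among the exposed libraries.

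RNA polymerase II subunits differed from that pattern in the place of control 1. Of 13 tested, 11 were lower, 7 with no overlap (53.8%, against 5.99% of all genes). The other 2 (15.4%) were higher by up to 0.58, both with overlap and both at an unadjusted limma p under 0.05 (6.33% of all genes). The family's mean deviation was 0.09, 0.09 and 0.07 in controls and 0.00, -0.03 and -0.03 in exposed libraries. Polr2f, a small subunit shared by the nuclear polymerases, was at 115, 126 and 128 TPM against 87.8, 107 and 96.7 TPM, a difference of -0.34. Polr2l was at 48.1, 52.1 and 55.7 TPM against 42.0, 42.0 and 43.2 TPM, and Polr2h at 62.3, 63.4 and 56.04 TPM against 51.5, 44.9 and 53.0 TPM. The median stayed between -0.20 and -0.13 when each library was left out. PFOS P1-7 libraries gave a median of -0.24 against the same 3 controls, so the 2 values share their controls.

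Smaller families at the low end were less even. S100 calcium-binding proteins had a median of -0.27 with 9 of 11 lower, 1 of the 2 higher being S100pbp, a binding partner matched by its symbol only. S100a10, which carries annexin A2 to the membrane, was at 51.8, 63.5 and 61.3 TPM against 40.1, 32.9 and 39.5 TPM, a difference of -0.64 ± 0.13 (SE). The family mean, in contrast, was set largely by control 3, at 0.49 against -0.11 and 0.16 in the other controls. Histone genes had 25 of 35 lower, 9 with no overlap (25.7%, against 5.99% of all genes), and 1 was higher with no overlap (2.86%, against 7.31%). Replication-dependent histone transcripts lack a poly(A) tail, and Hist1h4k was at 4.70, 6.5 and 6.46 TPM against 0.73, 0.00 and 0.79 TPM, whereas Hist1h4c was 0.00 in all controls and 3.39, 0.00 and 9.48 TPM in exposed libraries. H2afv, a polyadenylated variant histone, was at 45.8, 42.2 and 45.1 TPM against 36.4, 34.9 and 38.7 TPM. Ly6 proteins had 5 of 6 lower, and 0 without overlap.

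The interferon-induced families, with 21 of 36 lower and a median of -0.13, rested on 1 control. The 27 tested interferon-stimulated genes of a separate list, 22 of them lower with a median of -0.23, had a mean deviation of 0.81 in control 2 and of -0.22 and -0.38 in controls 1 and 3, against -0.06, -0.12 and -0.32 in exposed libraries. Irf9, a subunit of the interferon signalling complex, was at 9.75, 19.4 and 10.7 TPM in controls and 9.01, 9.69 and 7.93 TPM in exposed libraries. Without control 2 the median of the list was 0.17, and that of the families 0.13. Ifitm1, a membrane protein that restricts viral entry, was lower in a different way, at 6.57, 12.6 and 14.1 TPM against 7.40, 5.02 and 3.76 TPM.

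Differences also followed transcript length and, without further scaling of the TPM, expression level. Genes with a median annotated transcript under 750 bases had a median difference of -0.0019, with 1314 of 2644 higher. The median was 0.02 from 750 to 1500 bases, 0.08 from 1500 to 3000, 0.13 from 3000 to 6000, where 1800 of 2272 were higher, and 0.22 above 6000, where 214 of 241 were higher. In the longest class the mean deviation was 0.14, -0.30 and -0.34 in controls 1 to 3 and 0.15, -0.06 and 0.10 in exposed libraries, so the slope came with controls 2 and 3. Across genes, the Spearman correlation of a library's deviation with length was 0.11, -0.26 and -0.30 in controls and 0.11, -0.09 and 0.17 in exposed libraries, given as a description. By level, the median was 0.10 for genes with a mean under 1 TPM. It was -0.01 for those from 300 to 1000 TPM and for the 130 genes above 1000 TPM. This order depended on the scaling: with quantile normalization the median was -0.02 under 1 TPM and 0.04 above 1000 TPM. Long noncoding genes had a median of -0.01 over 375 genes, against 0.06 over 13736 protein-coding genes.

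**Figure D4:**
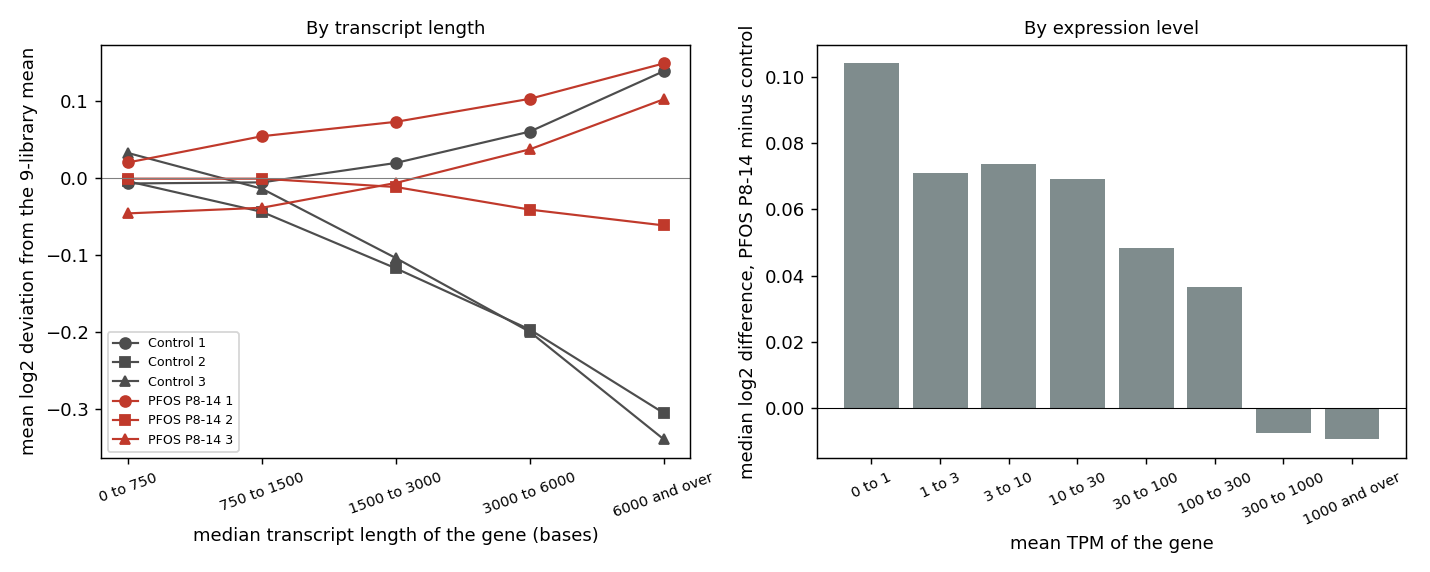
Left, mean log2 deviation of each library from the 9-library mean by median transcript length of the gene; right, median log2 difference of PFOS P8-14 minus control by mean TPM. Controls 2 and 3 reach -0.30 and -0.34 in the longest genes, where control 1 is at 0.14. Without further scaling of the TPM, the median difference runs from 0.10 in the lowest to -0.01 in the highest expression classes.

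Families differ in length, and the family medians were recomputed after a smooth trend of each library on length and GC content was removed. Protocadherins, with a median transcript of 4440 bases, then had a median of 0.11, kinesins 0.07 and ionotropic glutamate receptors 0.03, while calcium channels had 0.20. Cytosolic ribosomal proteins, with 629 bases, had -0.26, and RNA polymerase II subunits -0.16. The median of all genes was then 0.01.

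Lists of cell type markers were examined for shifts in cell makeup. Microglial markers were mixed, with 10 of 18 higher and a median of 0.08, but 5 members had every exposed value below every control (27.8%, against 5.99% of all genes). C1qb, at 87.8, 107 and 99.3 TPM in controls and 69.5, 75.6 and 72.1 TPM in exposed libraries, and its neighbour C1qa, at 101, 104 and 90.7 TPM against 80.1, 84.3 and 77.0 TPM, encode chains of the complement protein C1q. The difference of C1qb was -0.43 ± 0.09 (SE) and that of C1qa -0.29 ± 0.07 (SE). Aif1, at 13.1, 17.6 and 12.5 TPM against 8.33, 12.2 and 8.82 TPM, and Tmem119, at 22.5, 23.1 and 22.3 TPM against 18.3, 15.2 and 19.98 TPM, are microglial identity markers. These 4 were named by the fixed rule as the smallest p of the list, and all are lower. The 10 higher members differed by at most 0.20, and 0 of the 18 separated the groups upwards (0%, against 7.31% of all genes). The mean deviation over all 18 was 0.16, -0.02 and -0.08 in controls and -0.09, -0.06 and 0.03 in exposed libraries. PFOS P1-7 libraries, set against the same controls, had C1qb at 69.7, 72.9 and 80.5 TPM and Aif1 at 13.04, 11.1 and 14.3 TPM.

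Of 6 tested blood cell markers, 4 were lower, 2 of them without overlap (33.3%, against 5.99% of all genes), and 2 were higher. Their median was -0.68, but -0.31 without control 2 and -0.27 without control 3. Beta-s, the symbol of an adult beta-globin in this table, was at 1415, 2056 and 1656 TPM in controls and 1093, 988 and 979 TPM in exposed libraries, a difference of -0.73 ± 0.21 (SE). Alas2, the haem synthesis enzyme of red cell precursors, was at 11.9, 14.8 and 11 TPM against 10.7, 6.55 and 6.43 TPM. Hbb-b1 followed at 260, 367 and 300.1 TPM against 177, 142 and 153 TPM. Beta-globin copies are near-identical, so their split is uncertain, and the alpha-globin Hba-a1 was at 0.00, 2333 and 1908 TPM against 0.00, 576 and 400.5 TPM, a split with its copy that makes its own difference unusable.

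Myelin genes were all on 1 side, with 18 of 18 oligodendrocyte markers higher and a median of 0.13. Only 1 of 18 separated the groups (5.56%, near the 7.31% of all genes). Enpp6, a marker of newly forming oligodendrocytes, was that one at 22.3, 20.3 and 23.1 TPM against 29.8, 26.7 and 27.2 TPM, a difference of 0.33 ± 0.09 (SE). Mbp, a structural protein of myelin, was at 5606, 7168 and 8542 TPM against 9449, 8450 and 8360 TPM. The list was low in control 1, at -0.66 against 0.07 and 0.17 in the other controls and -0.01 to 0.02 in exposed libraries, and without control 1 its median was -0.14. Interneuron markers were 10 of 16 higher, with Vip, a neuropeptide of disinhibitory interneurons, at 31.6, 35.1 and 21.8 TPM against 14.9, 21.1 and 19.98 TPM, and Gad2, a GABA-synthesising enzyme, at 67.0, 52.0 and 53.6 TPM against 81.4, 66.8 and 73.3 TPM. Man1a, a mannosidase in the CA1 list, was at 38.8, 28.4 and 27.7 TPM against 45.8, 44.0 and 49.9 TPM, while the 10 CA1 markers had 5 higher and 5 lower.

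Pathways tied to PFOS in other tissues gave small differences. Of 16 tested targets of the constitutive androstane receptor, 12 were higher and 4 separated the groups upwards (25%, against 7.31%). These were the exporters Abcc4, at 5.90, 4.16 and 4.20 TPM against 7.77, 6.94 and 6.29 TPM, and Abcc1, the cytochrome Cyp2d22, at 26.8, 25.3 and 21.5 TPM against 31.7, 29.2 and 29.6 TPM, and Por, the electron donor of microsomal cytochromes, at 78.9, 76.4 and 71.1 TPM against 98.0, 83.7 and 85.1 TPM. The receptor gene Nr1i3 itself and its best known liver targets Cyp2b10 and Cyp3a11 were under the filter. The PPAR and fatty acid oxidation list had 23 of 31 higher with a median of 0.11. Among them, 3 had every exposed value above every control (9.68%, against 7.31% of all genes) and 2 below (6.45%, against 5.99%). Acaa1a, a peroxisomal thiolase, was at 76.5, 89.9 and 86.7 TPM against 70.2, 67.3 and 59.5 TPM, below every control. The acyl-CoA synthetases Acsl3, at 103, 113 and 110 TPM against 120, 136 and 137 TPM, and Acsl1, at 33.9, 31.3 and 33.9 TPM against 39.3, 37.5 and 37.9 TPM, lay above every control.

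Cholesterol genes had 16 of 25 higher with a median of 0.04, and 5 separated the groups upwards (20%, against 7.31%). Hsd17b7, an enzyme of sterol synthesis, was at 12.7, 12.6 and 13.2 TPM against 14.3, 16.1 and 18.9 TPM, and Srebf1, a transcription factor of lipid synthesis, was at 22.0, 19.2 and 22.7 TPM against 34.6, 25.5 and 24.03 TPM. Control 1 lay inside the range of the other controls for both genes.

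Stress pathways showed members in both directions. In the unfolded protein response, 12 of 24 were higher and 12 lower. Ppp1r15a, which restarts translation after stress, was at 17.4, 17.9 and 17.9 TPM against 28.3, 23.4 and 22.2 TPM, a difference of 0.45 ± 0.11 (SE). Ddit3, the stress transcription factor CHOP, was at 36.8, 66.5 and 57.1 TPM against 32.1, 37.2 and 30.2 TPM, and Creld2, an endoplasmic reticulum chaperone, at 20.9, 32.4 and 22.1 TPM against 17.5, 15.2 and 18.3 TPM. Ppp1r15a and Creld2 separated the groups, while Ddit3 overlapped through control 1. Gclc, the rate-limiting enzyme of glutathione synthesis, was at 37.7, 31.7 and 35.9 TPM against 44.4, 42.3 and 47.7 TPM, and the ferritin light chain Ftl1 was lower at 1023, 1368 and 1450 TPM against 940.3, 1049 and 954 TPM. Klf9, a target of thyroid hormone and glucocorticoids, overlapped through control 1, at 153, 102 and 97.6 TPM against 176, 150.3 and 178 TPM.

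Calcium signalling genes had 30 of 35 higher with a median of 0.18, and 4 separated the groups upwards (11.4%, against 7.31%). Orai2, a store-operated calcium channel, was at 172, 149 and 140 TPM against 205, 192 and 207 TPM, a difference of 0.39 ± 0.10 (SE). Stim2, the sensor that opens such channels, was at 51.4, 50.6 and 46.0 TPM against 57.6, 58.7 and 62.2 TPM. Slc8a3, a sodium-calcium exchanger, was at 11.6, 7.95 and 8.38 TPM against 14.9, 12.9 and 11.7 TPM. In these 3 genes control 1 was the control nearest to the exposed libraries. Synaptic adhesion genes had 28 of 32 higher, with Ptprd, an organiser of presynaptic terminals, at 55.6, 51.0 and 50.9 TPM against 62.7, 60.1 and 68.2 TPM, and Epha4, an ephrin receptor, at 149, 114 and 118 TPM against 148, 163 and 191 TPM.

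The contrast of PFOS P8-14 with PFOS P1-7 asked where the exposure windows differ, and called no gene in limma (0%, smallest adjusted p = 1). At an unadjusted p under 0.05 there were 67 genes higher (0.467%) and 91 lower (0.635%) after days 8 to 14. Of the 35 immediate early genes, which neurons switch on within minutes of firing, 9 were among the 91 (25.7% of the list). Arc, which trims AMPA receptors from synapses, was at 69.9, 84.5 and 73.2 TPM in controls, 85.1, 66.5 and 72.0 TPM after days 8 to 14, and 84.2, 140 and 132 TPM after days 1 to 7. Egr1, a transcription factor used as an activity marker, was at 94.3, 113 and 106 TPM, then 106, 102 and 102 TPM, and 107, 167 and 160 TPM. Egr1 after days 8 to 14 lay inside the control range, and Arc reached slightly past it on both sides. Fos was at 7.26, 9.27 and 7.23 TPM, then 9.50, 8.41 and 6.85 TPM, and 9.01, 13.8 and 13.5 TPM. Nr4a1, a nuclear receptor, was at 49.8, 45.3 and 48.0 TPM, then 57.3, 51.2 and 50.5 TPM, and 60.5, 80.2 and 76.0 TPM, so its values after days 8 to 14 lay above every control.

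The high values after days 1 to 7 came from libraries 2 and 3 of that group, and for Arc and Fos the first library overlapped PFOS P8-14. The log2 difference of PFOS P8-14 minus PFOS P1-7 was -0.64 ± 0.18 (SE) for Arc, -0.45 ± 0.15 for Egr1, -0.49 ± 0.18 for Fos and -0.43 ± 0.11 for Nr4a1. These 4 were chosen after their values were seen. The list median against control was 0.08 after days 8 to 14 and 0.23 after days 1 to 7, from the same 3 controls. Egr3 and Nr4a3 were high in both windows and in control 1: Nr4a3 was at 49.3, 22.1 and 22.0 TPM in controls and 50.5, 40.8 and 62.6 TPM after days 8 to 14.

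**Figure D5:**
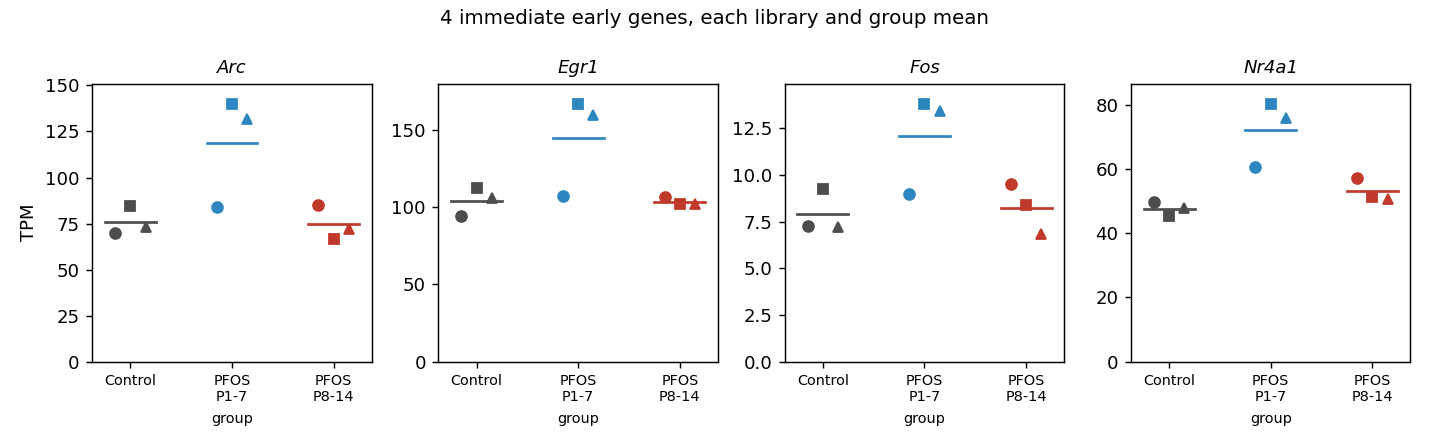
TPM of Arc, Egr1, Fos and Nr4a1 in each library (circle, square and triangle for replicates 1, 2 and 3) with the group mean as a bar, for control, PFOS P1-7 and PFOS P8-14. For Arc, PFOS P8-14 libraries lie at 66.5 to 85.1 TPM and controls at 69.9 to 84.5 TPM, while libraries 2 and 3 of PFOS P1-7 are at 140 and 132 TPM.

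Among the 10 transcripts with the highest control mean, differences ran from -0.33 for Sepw1 to 0.32 for Mbp, the myelin basic protein. Cst3 was at 6219, 5452 and 5827 TPM against 5292, 5869 and 5773 TPM, and Gapdh at 5188, 4709 and 4621 TPM against 4904, 5124 and 5376 TPM. Ubb, a polyubiquitin gene that responds to protein stress, was at 4993, 3898 and 3990.3 TPM against 5264, 5165 and 5139 TPM, a difference of 0.28 ± 0.11 (SE) with no overlap. Sepw1, a small selenoprotein, was at 3678, 4901 and 5431 TPM against 3341, 3735 and 3921 TPM. For Ubb and Sepw1, control 1 was the control nearest to the exposed range.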

How the data were processed

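The authors deposited 1 table of TPM per gene symbol, with 1 column per library. Per the submitters' processing notes, bcl2fastq, fastp 0.21.0, STAR 2.5.3a, RSEM 1.3.3 and genome mm10 were used, and per the labels' protocols libraries came from a stranded mRNA kit. The annotation used is not given in the sources used here. Genes at 1 TPM or more in at least 3 of 9 libraries were tested on log2(TPM + 1) with limma 3.58.1 in R 4.3.3, as 1 mean per group over all 9 libraries, with a mean-variance trend, two-sided tests and Benjamini-Hochberg adjustment over 14336 genes. Gene positions, lengths and GC came from GENCODE M21 (mm10), matching 21777 symbols directly and 1265 through RefSeq synonyms of 23412. Families were defined by symbol patterns. The members, lists and families were chosen with earlier results of these data known. Named genes were the 12 smallest p and 6 largest differences (mean of at least 5 TPM, groups not overlapping) per direction, the 10 highest in controls, and the 4 smallest p in each list and in the 16 families with the most extreme medians. The fit was tested on simulated shifts. Alternatives changed scaling, filter, pseudocount, covariates, weights and samples. Same-numbered control and exposed libraries did not deviate together (correlations across genes 0.174, 0.139 and -0.467), so the numbers were not treated as pairs. Some results are not reported here.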

Additional observations from a re-analysis of the deposited data

How the results depend on the processing

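Across 21 alternatives, 0 genes passed the threshold in limma except without control replicate 1 (1741), with array weights (1053) and without control 1 with the length and GC trend removed (1371, chosen after seeing the data), so the count ranged from 0 to 1741 when each library was left out. Between the 3 settings 710 genes were shared, 425 higher and 285 lower, of which 265 separated all 6 libraries. Of the 24 genes named by p, 24 passed without control 1, 24 with array weights and 18 of the 22 with a length in the third setting. The 24 were ranked on these same libraries, so their passing was favoured in advance and is no separate support. Genes at an unadjusted p under 0.05 that were higher numbered 907, and 1567 with the choroid-rich class as covariate (chosen after seeing the data), 1475 with the choroid score, 2917 with array weights, 2123 without control 1 with the trend removed, 590 with median-of-ratios scaling, 594 in the 6 compared libraries alone and 352 to 3083 leaving 1 out. Lower genes numbered 666, and 1335 with array weights, 1888 without control 1 with the trend removed, 1011 with median-of-ratios scaling and 361 to 1241 leaving 1 out. Higher genes were 57.7% of those calls, against 36.9% with median-of-ratios scaling, 39.9% with quantile normalization and 45.6% after detrending on length and GC, which brought the median of all genes from 0.06 to 0.01, 0.0011 and 0.01. Genes without overlap ranged from 1376 to 4747 (higher) and from 1173 to 2208 (lower) leaving 1 out. PFOS P8-14 against PFOS P1-7 called 0 in every alternative run.

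The library numbers were not treated as pairs, and pairing by litter or batch cannot be checked from the labels. With the replicate block limma called 0 genes, with a smallest adjusted p of 0.237.

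Of 229 named genes, 10 changed sign in some setting, and the cause was not tested. In the fit that dropped control 1 and detrended the libraries, Cst3 was at 0.019, Ppia at -0.021, Gria1 at -0.053, Olig2 at -0.0093, Myrf at -0.13, Nts at 0.052 and Slc12a2 at -0.060. Cst3 was at 0.018 with array weights, and Cpe at -0.0055 with median-of-ratios scaling. Leaving out each library in turn, Cst3 ranged from -0.094 to 0.00073, Fth1 from -0.12 to 0.033, Hba-a1 from -5.10 to 1.55 and Nts from -0.46 to 0.038. Depth is unknown from TPM, so what it limits cannot be stated.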

Other observations

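Families of RNA-processing genes differed in direction in PFOS P8-14. RNA-binding motif proteins were higher in 35 of 56 (62.5%, against 62.1% of all genes), with a median of 0.06, close to the 0.06 of all genes. Among the 56, 7 were higher without overlap (12.5%, against 7.31% of all genes) and 2 lower without overlap (3.57%, against 5.99%). Of 52 DEAD and DEAH box helicases, which unwind RNA, 36 were higher, with a median of 0.10. Among the 52, 10 were higher without overlap (19.2%, against 7.31% of all genes) and 3 lower without overlap (5.77%, near the 5.99% of all genes). Ddx3x, a helicase of translation initiation, was at 124, 101 and 110 TPM in controls and 138, 140 and 144 TPM in exposed libraries, a difference of 0.34 ± 0.08 (SE, limma adjusted p = 0.424). Heterogeneous nuclear ribonucleoproteins, which package nascent transcripts, were higher in 14 of 18. Of the 18, 6 were higher without overlap (33.3%, against 7.31% of all genes) and 2 lower without overlap (11.1%, against 5.99%). Hnrnpk was at 404, 341 and 334 TPM against 447, 434 and 415 TPM. Ubiquitin-specific proteases were higher in 40 of 47 with a median of 0.17. Of the 47, 7 were higher without overlap (14.9%, against 7.31% of all genes) and 2 lower without overlap (4.26%, against 5.99%). Small nuclear ribonucleoproteins, the core of the spliceosome, were lower in 18 of 24, 2 without overlap (8.33%, near the 5.99% of all genes). Their median transcript was 689 bases, against 1473 for the helicases. Ddx3x and Hnrnpk were chosen after their values were seen.

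By chromosome, the share of genes higher in PFOS P8-14 was spread around the 62.1% of all genes, and medians lay between 0.02 and 0.10 on every autosome and on X.

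The main limits are 3 libraries a group, a control that stands apart, choroid plexus in 1 control and 2 exposed libraries, and values without depth. No litter, batch or date is labelled for these libraries, so such sources cannot be told apart from exposure. Bulk values do not separate cell number from RNA per cell.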
